A study of Mus musculus with 16 samples.

Results

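Promoter CpG methylation was compared between mouse induced pluripotent stem cell (iPSC) lines that had been reprogrammed from kidney proximal tubule cells (PTC) or from tail tip fibroblasts (TTF). The members are the promoters of the deposited methylation table on chromosomes 1 to 19, which are 51155 of its 55471 rows, and 48866 of them had a value in all 4 lines. Each value is the fraction of CpGs called methylated by nanopore sequencing within 1000 bp of a transcription start site (TSS), from 0 (no CpG methylated) to 1 (all methylated). The lines were PTC11 and PTC12 from proximal tubule cells and TTF1 and TTF4 from fibroblasts, so each origin had 2 lines and each line was 1 clone. The question was whether iPSCs keep methylation of the cell type from which they were made.

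All lines came from mice that carried SLC34a1-GCE and tdTomato together with rtTAROSA (neo-in) and OKMS-250, in which doxycycline (DOX) switches on Oct4, Klf4, c-Myc and Sox2. Both origins were taken from littermates. The mice were 6 weeks old when tamoxifen food was started, were fed it for 2 weeks, and were killed at 8 to 10 weeks. In the kidney the SLC34a1 promoter drives the tamoxifen-dependent Cre, which limits labelling to mature proximal tubule cells, and the cells were sorted as tdTomato+/GFP+. TTF do not use that promoter and received Cre from a non-integrating episomal plasmid by electroporation. DOX was withdrawn later, and the lines measured grew without it. Origin, the source of Cre and the sort therefore differ together and cannot be told apart. The sex of the donor mice is not stated, and values on the Y chromosome, given at the end, were also more frequent in TTF lines.

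DNA methylation in mammals sits mostly on the cytosine of CpG dinucleotides. Much of the genome has few CpGs, and these are usually methylated, whereas CpG islands at the promoters of housekeeping and developmental genes are usually free of methylation. Trimethylation of lysine 4 on histone H3 (H3K4me3) marks active and poised promoters, and the enzyme complex that sets DNA methylation de novo binds histone H3 poorly when this lysine is methylated. Pluripotent cells keep the promoters of pluripotency genes open, while the promoters of many germ cell genes are kept silent by methylation.

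The sequences below show the kinds of promoter that the results turn on. Each is the 250 bases upstream of the RefSeq start of the gene on GRCm38.p6, written 5′ to 3′ on the strand of the gene, with every CG in capitals. Klf4, a reprogramming factor, had a CpG-rich promoter of low fraction in every line. Tcl1, a cofactor of Akt kinases, was low in 3 lines and high in TTF4. Rpl10l, a testis-specific copy of a ribosomal protein gene, and Npvf, which encodes a neuropeptide, stand for promoters that were high in 3 lines and in all 4 lines, with and without CGs in this window. Peg3, an imprinted zinc finger gene, was lowest in TTF4. Alb, the liver gene for serum albumin, stands for the many CpG-poor promoters of intermediate or high fraction.
Klf4, chr4:55532476-55532725 (minus strand): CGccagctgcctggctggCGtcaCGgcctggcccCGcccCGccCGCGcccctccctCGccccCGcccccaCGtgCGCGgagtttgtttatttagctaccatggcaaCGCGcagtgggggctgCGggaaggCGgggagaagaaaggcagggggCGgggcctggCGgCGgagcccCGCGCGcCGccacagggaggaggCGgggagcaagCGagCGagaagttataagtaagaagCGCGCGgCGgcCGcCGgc
Tcl1, chr12:105222738-105222987 (minus strand): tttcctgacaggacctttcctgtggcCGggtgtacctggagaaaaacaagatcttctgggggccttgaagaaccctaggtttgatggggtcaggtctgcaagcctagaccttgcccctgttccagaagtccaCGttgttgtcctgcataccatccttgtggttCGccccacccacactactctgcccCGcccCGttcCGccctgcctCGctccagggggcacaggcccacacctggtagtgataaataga
Rpl10l, chr12:66284402-66284651 (minus strand): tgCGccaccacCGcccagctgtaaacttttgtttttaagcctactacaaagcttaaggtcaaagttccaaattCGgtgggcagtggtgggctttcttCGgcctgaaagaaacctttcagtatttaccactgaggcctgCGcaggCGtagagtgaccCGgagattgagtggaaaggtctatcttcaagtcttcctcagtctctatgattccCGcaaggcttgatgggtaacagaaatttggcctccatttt
Peg3, chr7:6730420-6730669 (minus strand): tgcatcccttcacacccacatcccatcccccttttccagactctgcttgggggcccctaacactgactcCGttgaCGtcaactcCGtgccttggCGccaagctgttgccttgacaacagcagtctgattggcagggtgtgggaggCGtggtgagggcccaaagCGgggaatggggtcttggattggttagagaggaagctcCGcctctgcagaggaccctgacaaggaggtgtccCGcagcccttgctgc
Npvf, chr6:50654446-50654695 (minus strand): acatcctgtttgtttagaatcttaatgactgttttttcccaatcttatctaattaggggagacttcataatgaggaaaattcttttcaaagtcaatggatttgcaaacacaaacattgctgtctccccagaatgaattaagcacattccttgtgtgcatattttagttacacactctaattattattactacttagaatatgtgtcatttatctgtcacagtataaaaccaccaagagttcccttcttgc
Alb, chr5:90460620-90460869 (plus strand): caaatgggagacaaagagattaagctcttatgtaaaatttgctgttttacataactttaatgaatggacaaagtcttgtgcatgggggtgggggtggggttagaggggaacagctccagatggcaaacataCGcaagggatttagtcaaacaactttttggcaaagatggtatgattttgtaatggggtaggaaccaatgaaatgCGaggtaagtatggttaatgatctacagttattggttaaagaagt
The letters CG read the same on both strands. The Klf4 window holds 32 of them, the Rpl10l and Peg3 windows 8 each, Tcl1 7, Alb 2 and Npvf 0. Over all 31365 RefSeq windows of this length 92.3% hold at least 1 CG, with a median of 6.

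TTF4 stood apart from the other lines and is named before the results for that reason. The median fraction over the 48866 promoters was 0.379 (PTC11), 0.533 (PTC12), 0.369 (TTF1) and 0.768 (TTF4). TTF4 had the highest value of the 4 lines at 37152 promoters (76.0%) and the lowest at 1426 (2.92%). Differences between origins that rest on TTF4 are given with and without it. The deposited tables give no coverage per promoter or line, so the depth behind each fraction is unknown and its part in these levels was not tested.

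The labels call all lines iPSCs, and this was checked on 9 defining genes of pluripotent cells, Pou5f1, Nanog, Sox2, Esrrb, Zfp42, Dppa5a, Tdgf1, Lin28a and Dnmt3b. H3K4me3 was present at 8 of the 9 in PTC11, PTC12 and TTF1 and at 6 in TTF4. A fraction of at most 0.2, called low here, was found at 8 (PTC11), 4 (PTC12), 8 (TTF1) and 5 (TTF4). Esrrb, a nuclear receptor of the pluripotency network, had no H3K4me3 in any line and fractions of 0.456, 0.720, 0.399 and 0.747 in PTC11, PTC12, TTF1 and TTF4, the order in which 4 values are given from here on. Starts of Esrrb further inside the gene were not examined. Zfp42 and Dppa5a had H3K4me3 in every line except TTF4.

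The fractions formed a low class and a broad upper class whose position differed between lines. Low promoters made up 31.6% (PTC11), 25.1% (PTC12), 32.5% (TTF1) and 14.0% (TTF4). High promoters, with a fraction of at least 0.8, made up 2.86%, 12%, 5.06% and 44.6%. The upper class was fullest between 0.5 and 0.6 in PTC11 and TTF1, between 0.6 and 0.7 in PTC12, and between 0.8 and 0.9 in TTF4. Neither origin had a distribution of its own, since PTC11 and TTF1 lay close together and the other 2 lines lay above them.

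**Figure D1:**
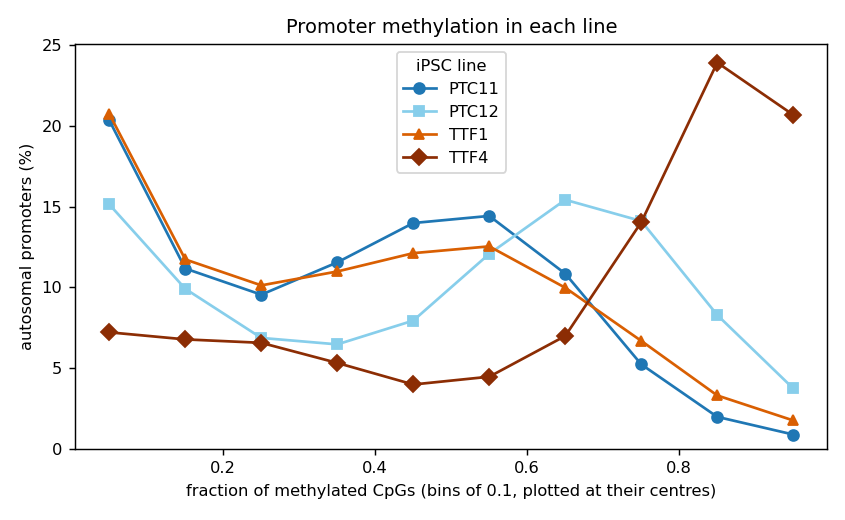
Percent of the 48866 promoters (vertical axis) in each step of 0.1 of the fraction of methylated CpGs (horizontal axis), 1 curve per iPSC line. PTC11 and TTF1 nearly overlap, PTC12 is shifted towards higher fractions, and TTF4 holds 23.9% of its promoters between 0.8 and 0.9.

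Averaged over promoters, the 4 lines stood at 0.366, 0.475, 0.372 and 0.643. The PTC mean was 0.421 ± 0.077 and the TTF mean 0.508 ± 0.192 (SD, n = 2 each). TTF lines were higher by 0.0871, which is more than the SD of the PTC lines and less than that of the TTF lines (two-sided exact permutation test over lines, p = 0.667; 4 lines in 2 pairs cannot give less than 0.33). Without TTF4 the difference turned to -0.0483. The share of low promoters was 28.3 ± 4.57% in PTC and 23.3 ± 13.1% in TTF lines (SD, n = 2), a difference of -5.07 percentage points (two-sided exact permutation p = 1). The share of high promoters was 7.45 ± 6.48% and 24.8 ± 28.0% (SD, n = 2), a difference of 17.4 percentage points (two-sided exact permutation p = 0.667). Without TTF4 these turned to 4.18 and -2.39 points, so the direction of each followed 1 line.

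Promoter by promoter, closeness between lines did not follow origin alone. After the mean of each line was subtracted (centring), the median absolute difference was 0.111 between the PTC lines and 0.162 between the TTF lines. Across origins it was 0.0992 between PTC11 and TTF1 and 0.117 between PTC12 and TTF1. The order of promoters gave another answer than their levels: the Spearman correlation across the 48866 promoters was 0.746 between the PTC lines, the highest of the 6 pairs, 0.701 between PTC11 and TTF1, and 0.628 between the TTF lines, the lowest.

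Of the 48866 promoters, 2311 had an unadjusted limma p under 0.05, fewer than that threshold gives where no promoter differs. By limma on centred fractions, 9 (0.0184%) differed between origins at an adjusted p under 0.05. One, Vmn2r-ps120, a vomeronasal receptor pseudogene, was higher in TTF lines (0.00205% of all tested), with fractions of 0.20, 0, 1 and 1 and a single CpG in the window. The other 8 (0.0164%) were lower in TTF lines. Gm23924 had fractions of 0.538, 1, 0 and 0, a centred difference of -0.856 (SE 0.147, limma adjusted p = 0.00417). Mup1, the gene of a major urinary protein that the liver secretes and the 1 protein coding gene called, had 1, 1, 0.111 and 0.667 (difference -0.698, SE 0.147, limma adjusted p = 0.0440). Mup1 belongs to a family of near-identical copies, so its value is uncertain, and Gm13773 starts 881 bp from it on the other strand, so that their windows share CpGs. Gm45616 and Gm45617 start 20 bp apart and have the same values, which leaves 8 distinct sets of values.

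The called promoters were poor in CpGs, with a median of 7 in the window and a range of 1 to 27, and 7 of the 9 held a fraction of exactly 0 or 1. Gm7816, with 27 CpGs, had 0.533, 0.692, 0.0618 and 0. Gm43829 had 0.663, 0.788, 0 and 0.219, and Gm49676 had 0.867, 0.869, 0 and 0.400. The calls held under some treatments of the values and not under others. All 9 were also called with centring on the median and without TTF1. None of the 9 was called without centring, with quantile normalisation, on a logit scale, without the variance trend, or without PTC11 or PTC12. Without TTF4 6 of the 9 were still called, among 152 in all.

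Counts of promoters whose origins did not overlap depended on how the lines were brought to a common level. After centring on the mean, both TTF lines exceeded both PTC lines at 7313 promoters (15.0%) and lay below both at 6219 (12.7%). That is 13532 (27.7%) in all, where 4 interchangeable lines would give a share of 0.33. Of the separated promoters 54.0% were higher in TTF. Without centring 9999 were higher and 1611 lower (86.1% higher). With centring on the median 5291 were higher and 7192 lower (42.4% higher), and with quantile normalisation 7997 and 8339 (49.0% higher). Among promoters with 80 or more CpGs 5.33% were higher and 7.72% lower after centring on the mean, and among those with 20 to 39 CpGs 19.5% and 12.7%. The shares of gene lists given below stand beside those of all promoters, without matching of CpG content.

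The fraction followed the number of CpGs around the start. Across the 48866 promoters, which share a library within each line, the Spearman correlation between CpG count and fraction was -0.630, -0.634, -0.583 and -0.567. The 9765 promoters with 80 or more CpGs had median fractions of 0.0557, 0.0799, 0.0564 and 0.173. The 7861 promoters with 40 to 79 CpGs had 0.187, 0.255, 0.194 and 0.480. The 13571 promoters with 20 to 39 CpGs had 0.483, 0.648, 0.50 and 0.851, close to the medians of 0.493, 0.635, 0.474 and 0.799 at the 5790 promoters with fewer than 10. The drop thus lay between 20 and 80 CpGs in every line, and below 20 CpGs the medians changed little.

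Protein coding genes had lower fractions than other kinds of gene. The 20054 protein coding promoters had medians of 0.155, 0.214, 0.157 and 0.393, and 4979 of them (24.8%) were low in all 4 lines. The 8463 processed pseudogenes, which are copies of mRNA pasted back into the genome without their promoter, had 0.532, 0.684, 0.542 and 0.857. The 4836 lincRNA genes had 0.468, 0.619, 0.463 and 0.825. Antisense genes, which often share a start region with a coding gene, lay between, with 0.367, 0.514, 0.365 and 0.795 at 2876 promoters.

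A total of 6113 promoters (12.5%) were low in all 4 lines. They had a median of 115 CpGs, 5218 of them had 80 or more, and 4979 (81.4%) were protein coding. The share that was low in every line was larger at higher CpG content, from 0.0173% below 10 CpGs and 0.273% at 20 to 39 to 10.8% at 40 to 79 and 53.4% at 80 or more. A further 4895 promoters were low in 3 of 4 lines, and at 4414 of these TTF4 was the line that was not low. Within 0.02 of the threshold, 692 promoters had their highest fraction just inside it and 743 just outside.

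Among protein coding genes low in all 4 lines, the 5 with the highest mean H3K4me3 were Ipo7, Zfp143, Rc3h2, Zfp329 and Rsl1d1. Ipo7, an importin that carries proteins into the nucleus, had fractions of 0.0285, 0, 0.0912 and 0.0791 beside H3K4me3 of 6.13, 9.87, 11.3 and 5.11 RPKM, which is reads scaled by length and depth. Zfp143 encodes a transcription factor of many housekeeping promoters, and Rc3h2 an RNA-binding protein that promotes mRNA decay.

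Only 93 promoters (0.190%) were high in all 4 lines, of which PTC11 and TTF1 had few high promoters at all (2.86% and 5.06%). They had a median of 27 CpGs, 40.9% were processed pseudogenes and 6 were protein coding. By CpG count the first 5 of these 6 were Usp14, Gm7735, Npvf, Bcl2a1a and Cyp2d9. Usp14, which encodes a deubiquitinase of the proteasome, had 0.913, 0.849, 0.866 and 0.903 around its outermost start, and its other starts were not examined. Npvf, whose window is printed above without a CG, had 0.849, 0.890, 0.885 and 0.903. Bcl2a1a, a member of a family of near-identical survival genes, had 0.871, 0.812, 1 and 0.932, and Cyp2d9, a cytochrome P450 of the liver in a family of similar copies, had 0.818, 0.908, 0.941 and 0.878. A further 16085 promoters were high in TTF4 alone, beside 1401 in PTC12 alone, 588 in TTF1 alone and 287 in PTC11 alone.

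Since the threshold of 0.8 meets a different part of each distribution, the promoters were also ranked within each line from 0 (lowest) to 100 (highest). At a rank of at most 25 in all 4 lines there were 7870 promoters, and at a rank above 75 in all 4 there were 1580.

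H3K4me3 in the same lines was joined by gene name for 48572 promoters. The histone table gives an RPKM value for a gene that had a peak at its TSS in a line, and none otherwise. Promoters with H3K4me3 had medians of 0.0752, 0.144, 0.0981 and 0.225, and those without had 0.467, 0.634, 0.478 and 0.831. The difference between these medians was 0.392, 0.490, 0.380 and 0.606, with a mean of 0.467, and the promoters without H3K4me3 were higher in 4 of 4 lines (two-sided exact sign-flip permutation test over lines, p = 0.125, the smallest that 4 lines allow). It was larger in TTF than in PTC lines by 0.0517 (two-sided exact permutation p = 1), and this turned to -0.0610 without TTF4. Of the 48572, 23160 were not named in the histone table, which uses another annotation, and counted as without H3K4me3. Within the 25412 genes named in both tables the differences were 0.385, 0.501, 0.394 and 0.611.

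The following values are for these 25412 genes. With H3K4me3, 85.4%, 62.9%, 73.5% and 44.5% of promoters were low, against 11.1%, 3.06%, 9.88% and 0.931% without. Read the other way, 87.0%, 96.6%, 90.6% and 97.7% of the low promoters carried H3K4me3, and 1.05%, 14.2%, 12.7% and 4.2% of the high ones. PTC11 and TTF4 had fewer genes with H3K4me3 (11788 and 11986) than PTC12 and TTF1 (14717 and 14364), and PTC12 and TTF1 had the larger shares of high promoters with the mark.

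The CpG count was higher the more lines carried H3K4me3 at the gene, and the fraction was lower in PTC11 at each step and in TTF4 from 2 lines on. In PTC11 the median was 0.491 where 0 lines had the mark (9834 genes), 0.458 for 1 line (1754), 0.333 for 2 (1332), 0.201 for 3 (1531) and 0.0703 for 4 (10961). In TTF4 the corresponding medians were 0.835, 0.846, 0.823, 0.622 and 0.212. The median CpG count went from 17 over 30, 43 and 58 to 94 along the same steps. Of the 10961 genes with H3K4me3 in all 4 lines 43.1% were low in all 4, and of the 9834 without it 0.539%.

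At matched CpG content the difference by H3K4me3 remained at intermediate CpG counts and was small at the highest. With 40 to 79 CpGs the 3224 promoters with H3K4me3 in all 4 lines had medians of 0.109, 0.157, 0.111 and 0.315, and the 398 with it in none had 0.474, 0.637, 0.495 and 0.864. With 20 to 39 CpGs the 334 with the mark had 0.203, 0.295, 0.221 and 0.578, and the 3593 without had 0.497, 0.666, 0.518 and 0.857. With 80 or more CpGs the 7307 with it had 0.0525, 0.0733, 0.0520 and 0.162, and the 88 without it had 0.0721, 0.0982, 0.0629 and 0.177. CpG-rich promoters thus had low fractions whether or not an H3K4me3 value was given. A gene without a value need not lack the mark, and this was not tested.

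**Figure D2:**
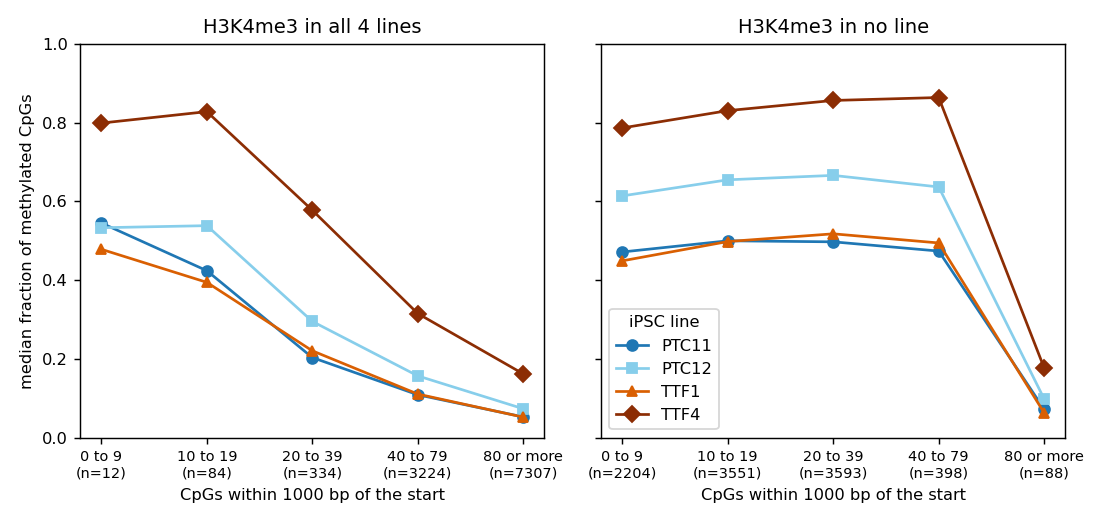
Median fraction of methylated CpGs (vertical axis) by the number of CpGs within 1000 bp of the start (horizontal axis), for genes with H3K4me3 in all 4 lines and in no line, 1 curve per iPSC line. The panels differ at 40 to 79 CpGs, where PTC11 is at 0.109 with the mark and 0.474 without, and meet at 80 or more.

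Among the genes with H3K4me3 in all 4 lines, those with more of it had lower fractions. They were ranked by RPKM within each line and split by the mean of the 4 ranks into 3 groups of equal size. From low to high, the median fraction went from 0.0955 over 0.0670 to 0.0507 in PTC11 and from 0.272 over 0.209 to 0.172 in TTF4. The share low in all 4 lines went from 31.6% over 44.0% to 53.8%, while the median CpG count rose from 86 over 97 to 100. Of the 4908 named genes low in all 4 lines, 4728 (96.3%) had H3K4me3 in all 4 and 53 (1.08%) in none, against 43.1% and 38.7% of all named genes. Among protein coding genes of these 53, those with the most CpGs were Ankrd11, Arhgap5, Rufy3, Zfp654 and Sipa1l2. Ankrd11, a chromatin regulator with 231 CpGs around its start, had 0.00411, 0.00114, 0.0118 and 0.0214. Of the 53 genes, 35 had H3K36me3, a mark of transcribed gene bodies, in all 4 lines. Whether these genes lack H3K4me3 or only a listed peak was not tested. Of the 33 named genes high in all 4 lines none had H3K4me3 in all 4, and 17 had it in none.

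Genes at which a single line lacked H3K4me3 differed between TTF4 and PTC11. At 720 genes, with a median of 58 CpGs, TTF4 alone had no H3K4me3. Their median fractions were 0.202, 0.295, 0.213 and 0.821, at median ranks of 45.8, 46.5, 47.3 and 69.9 among the 25412 genes named in both tables, which is 31.8, 31.6, 33.8 and 59.7 among all promoters. Among the named genes TTF4 ranked above the mean of the other lines at 86.5% of them, by a median of 22.3 rank points. At 795 genes, with a median of 59 CpGs, PTC11 alone had none. Their fractions were 0.197, 0.252, 0.205 and 0.422, and PTC11 ranked above the others at 58.5%, by a median of 2.19 points. PTC12 alone lacked H3K4me3 at 7 genes and TTF1 alone at 9. The difference between the sets was not tested, since each rests on 1 line.

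**Figure D3:**
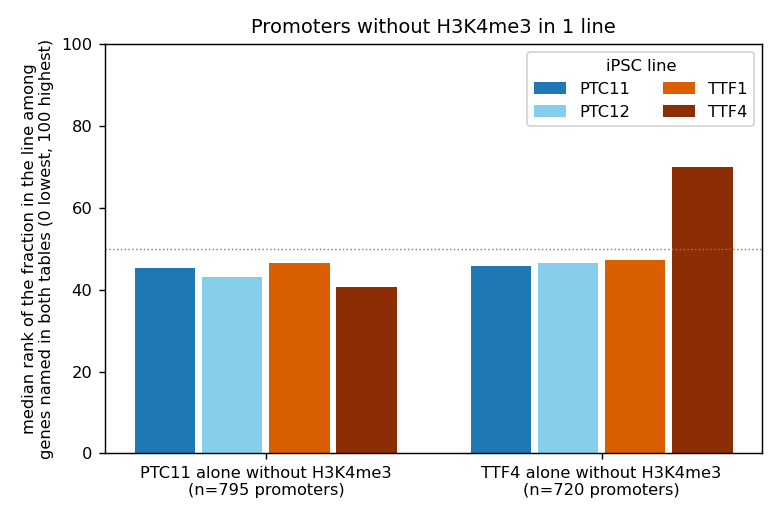
Median rank of the fraction within each line among the 25412 genes named in both tables (vertical axis, 0 lowest and 100 highest) at the genes where PTC11 alone or TTF4 alone has no H3K4me3, 1 bar per iPSC line. At the 720 genes of TTF4 its bar reaches 69.9 and the others 45.8 to 47.3, while at the 795 genes of PTC11 the bars lie between 40.6 and 46.4.

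Where a single line had H3K4me3, the fractions of that line were not uniformly lower. PTC12 alone had it at 978 genes and ranked above the others at 49.2% of them, and TTF1 alone at 644 genes, with 50.0%. TTF4 alone had it at 104 genes and ranked above the others at 30.8%, with a median of -4.53 rank points.

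A set of promoters was low in PTC11, PTC12 and TTF1 and high in TTF4. There were 176 of these, of which 78 were protein coding, with a median of 47.5 CpGs and median fractions of 0.0748, 0.114, 0.0928 and 0.886. They are not all separate regions. Many of the most CpG-rich members were predicted pseudogenes near each other on chromosome 12, from Gm49330 to Gm21297. Poc1b, Gm48768, Galnt4 and Dusp6 lie close together on chromosome 10 and each had 0.80 in TTF4. How well reads map to such copies was not tested. Of the 93 named in the histone table, H3K4me3 was present at 69, 81, 80 and 21. No promoter was low in TTF4 and 2 other lines and high in the remaining one. Lox, which encodes the enzyme that crosslinks collagen, had 0.0944, 0.0823, 0.164 and 0.986.

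Pluripotency genes had low fractions in PTC11, PTC12 and TTF1 and were divided in TTF4. Of 30 listed, 26, 19, 26 and 12 were low and 10 were low in all 4 lines, against 12.5% of all promoters. Their medians were 0.0326, 0.118, 0.0735 and 0.347, at median ranks of 8.46, 17.0, 16.8 and 23.2. Both TTF lines exceeded both PTC lines after centring at 6 (20.0%, against 15.0% of all promoters) and lay below both at 1 (3.33%, against 12.7%), and limma called 0. Klf4 (mm10 chr4:55527143-55532466, 179 CpGs) had 0.0142, 0.0320, 0.0115 and 0.0169, with H3K4me3 of 3.93, 5.84, 6.05 and 2.98 RPKM. Lin28a, an RNA-binding protein that blocks let-7 maturation, had 0.0271, 0.0511, 0.0275 and 0.0249. Both were low in every line with little spread between lines. The reprogramming transgene carries Klf4, Sox2 and Pou5f1 sequence, and its part in the values of these genes was not tested.

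The core factors Pou5f1, Sox2 and Nanog did not separate by origin after centring. Pou5f1 had 0.00756, 0.227, 0.0297 and 0.0786, highest in PTC12. Sox2 had 0.00752, 0.0114, 0.0862 and 0.0630, with both TTF lines above both PTC lines as deposited and all 4 values low. Nanog had 0, 0.391, 0.138 and 0.362, so that PTC12 and TTF4 lay above the low threshold and PTC11 and TTF1 below it.

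In TTF4 the fraction at pluripotency genes went with H3K4me3. At the 19 genes that had H3K4me3 in TTF4, its fractions ran from 0.0169 to 0.674 with a median of 0.166. At the 11 that had none, they ran from 0.608 to 0.946 with a median of 0.803, and TTF4 was the highest line at all 11. At 8 of these 11 the other lines all had H3K4me3: Prdm14, Gdf3, Dppa3, Zfp42, Dppa5a, Tcl1, Dppa4 and Dppa2. There the highest fraction was 0.144 in PTC11, 0.359 in PTC12 and 0.167 in TTF1, and the lowest in TTF4 was 0.608. These 8 genes had a median of 42.5 CpGs and the 19 genes 71, and CpG content was not matched.

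Several of these 8 act in naive pluripotency or in germ cells. Tcl1 (mm10 chr12:105216750-105222793, 59 CpGs), whose upstream window is printed above, had 0.00476, 0, 0.0197 and 0.946, with H3K4me3 of 3.64, 3.19 and 4.00 RPKM and none in TTF4. It had the largest difference between origins among the listed pluripotency genes, 0.393 after centring (SE 0.142, limma adjusted p = 0.731), which was 0.0656 without TTF4. Prdm14, which represses methyltransferase genes, had 0.0345, 0.140, 0.0254 and 0.879. Dppa4 had 0, 0.103, 0.0504 and 0.759, and its neighbour in function Dppa2 had 0.0514, 0.190, 0.153 and 0.608. Dppa3, which shields the maternal genome from demethylation, had 0.113, 0.359, 0.0742 and 0.856. TTF4 was the only line of the 4 in which these genes were above 0.6.

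**Figure D4:**
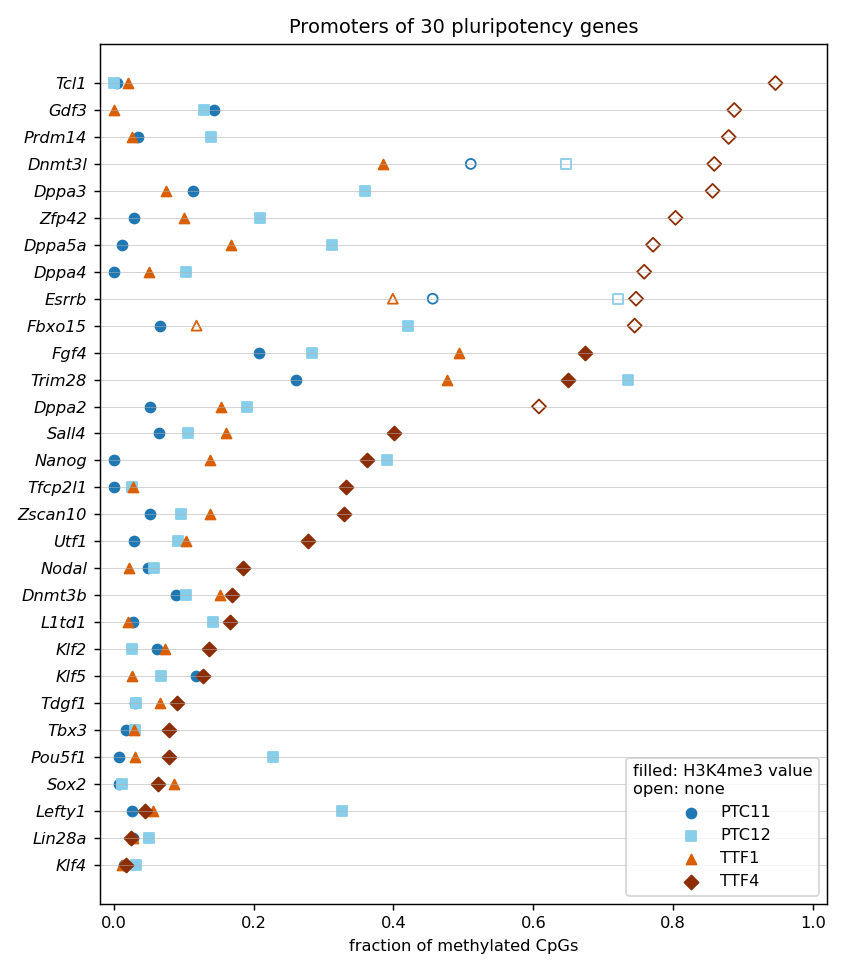
Fraction of methylated CpGs (horizontal axis) at the promoters of 30 pluripotency genes, 1 symbol per iPSC line, filled where the gene has an H3K4me3 value in that line and open where it has none. The open TTF4 symbols lie between 0.608 and 0.946 and the filled ones between 0.0169 and 0.674.

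Some other listed members were above the low threshold in every line. Trim28, a corepressor that keeps imprints and retroviruses methylated, had 0.261, 0.735, 0.477 and 0.650 with H3K4me3 in every line. Fgf4 had 0.208, 0.284, 0.494 and 0.674. The outermost annotated starts of Trim28 and Fgf4 had only 15 and 14 CpGs around them. Starts further inside these genes were not examined, so the values need not be those of their main promoters. Dnmt3l, the cofactor of the de novo methyltransferases, had 0.511, 0.646, 0.385 and 0.859, with H3K4me3 in TTF1 alone, the line with the lowest fraction. Dnmt3b, a de novo methyltransferase, was low in every line, with 0.0889, 0.104, 0.152 and 0.169.

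Germ cell genes had intermediate fractions in 3 lines and high fractions in TTF4. Of 32 listed, 0, 3, 4 and 27 were high and 1 was low in all 4, with medians of 0.396, 0.573, 0.406 and 0.898. TTF4 was the highest line at 31 of the 32 (96.9%), against 76.0% of all promoters, and its median rank was 78.9 beside 52.2, 54.9 and 54.3. After centring, both TTF lines exceeded both PTC lines at 7 (21.9%, against 15.0% of all promoters) and lay below both at 0 (against 12.7%), and limma called 0.

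H3K4me3 at the germ cell genes divided the lines in another way. It was present at 5, 30, 24 and 2 of the 32 (15.6%, 93.8%, 75% and 6.25%). Among all genes named in both tables the shares were 46.4%, 57.9%, 56.5% and 47.2%, so PTC12 and TTF1 had the mark more often there too. At the 17 genes that had it in PTC12 and TTF1 alone, median fractions were 0.334, 0.551, 0.416 and 0.904, so that PTC11, without the mark, had the lowest. PTC11 was also lowest over all 1166 named genes of this pattern, with 0.338, 0.471, 0.349 and 0.831. Dazl, an RNA-binding protein that germ cells need, was such a gene (139 CpGs), with 0.454, 0.646, 0.631 and 0.897 and H3K4me3 of 2.94 and 2.80 RPKM in PTC12 and TTF1. Ddx4, a helicase used as a germ cell marker, had 0.30, 0.515, 0.227 and 0.982.

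By mean fraction the germ cell list ran from Hsf2bp (0.0595, 0.0839, 0.0808 and 0.103) and Tex14 (0.0154, 0.117, 0.0225 and 0.560) to Tdrd9 (0.663, 0.703, 0.824 and 0.950) and Rpl10l. Rpl10l, whose window is printed above and which has 72 CpGs around its start, had 0.471, 0.873, 0.812 and 0.991. Piwil1, which binds piRNAs in the testis, had the largest difference between origins of the list, with 0.432, 0.607, 0.839 and 0.995 (0.310 after centring, SE 0.140, limma adjusted p = 0.977, and 0.368 without TTF4). Both TTF lines exceeded both PTC lines there, which limma did not call.

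Developmental transcription factors, which direct the formation of organs in the embryo, were low in all lines including TTF4. Of 30 listed, 19 (63.3%) were low in all 4 lines, with medians of 0.0944, 0.114, 0.0952 and 0.0803. Their median rank was 5.99 in TTF4, below 19.6, 16.7 and 20.1 in the others, and TTF4 was the lowest line at 11 (36.7%), against 2.92% of all promoters and 6.47% of promoters with 80 or more CpGs. H3K4me3 was present at 23, 30, 29 and 25 of the 30 (76.7%, 100%, 96.7% and 83.3%). Among all genes named in both tables these shares were 46.4%, 57.9%, 56.5% and 47.2%. After centring, both TTF lines exceeded both PTC lines at 1 and lay below both at 1 (3.33% each, against 15.0% and 12.7% of all promoters), and limma called 0. The list had a median of 93 CpGs, and among promoters with 80 or more CpGs the shares were 5.33% and 7.72%.

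Single factors show the range. Lhx1, a factor of kidney and head formation, had 0, 0.0261, 0.0211 and 0, and Neurog2, a factor of neuron formation, had 0.0192, 0.0273, 0.0401 and 0.00644. Cdx2, the factor of trophoblast and hindgut, had 0.0480, 0.0451, 0.0453 and 0.00625. Lhx2, a factor of eye and forebrain, had 0.101, 0.112, 0.0456 and 0.00635, the largest centred difference between origins of the list (-0.167, SE 0.128, limma adjusted p = 1, and -0.0123 without TTF4). Centring lowers every difference of TTF minus PTC by 0.0871, also at promoters near 0. As deposited, the Lhx2 means were 0.106 in PTC and 0.0260 in TTF lines, so part of its rank comes from centring. At the upper end, Gata4, a factor of heart and endoderm, had 0.372, 0.718, 0.641 and 0.733, and Tbx5, a factor of heart and forelimb, had 0.355, 0.649, 0.277 and 0.719. Gata4 had 27 CpGs around its outermost start, and its other starts were not examined. Otx2 (0.0566, 0.146, 0.0946 and 0.533) and Neurod1 (0.287, 0.263, 0.214 and 0.804) were members at which TTF4 was highest.

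The Hox genes, clustered factors that pattern the body axis, had medians of 0.0796, 0.113, 0.0850 and 0.149, with 20 of 39 low in all 4 lines. Their median rank was 10.4 in TTF4 and 16.6 to 18.6 in the other lines, while by fraction TTF4 was the highest line at 21 (53.8%) and the lowest at 3 (7.69%). Both TTF lines lay below both PTC lines after centring at 5, a share of 12.8% beside 12.7% of all promoters, and above both at 0, beside 15.0%, and limma called 0. Their median was 88 CpGs, and among promoters with 80 or more CpGs 7.72% lay below and 5.33% above.

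Imprinted genes, which are methylated on 1 parental copy at their control regions, had medians of 0.323, 0.395, 0.284 and 0.619, and of the 32 measured of 33 listed 1 was low in all 4 lines. High values were found at 1, 7, 0 and 12. After centring, 7 lay higher (21.9%, against 15.0% of all promoters) and 8 lower (25%, against 12.7%) in both TTF lines, and limma called 0. The lowest of the list were Rasgrf1 (0.0476, 0.0329, 0.0141 and 0.0132), an exchange factor for Ras, and Commd1 (0.140, 0.157, 0.0232 and 0.243). The highest were Meg3 (0.740, 0.904, 0.685 and 0.903), a long noncoding RNA, and Peg13 (0.802, 0.970, 0.471 and 0.956). A window of 1000 bp around a TSS need not hold the control region of an imprinted gene.

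Imprinted members lay on opposite sides in TTF4. Peg3, whose window is printed above, had 0.319, 0.804, 0.496 and 0.0679, a difference of -0.367 after centring (SE 0.158, limma adjusted p = 0.937), which was -0.0179 without TTF4. Usp29, which starts 147 bp away on the other strand and so shares most of this window, had 0.305, 0.809, 0.509 and 0.0539. Kcnq1ot1, the noncoding RNA that silences its neighbours on the paternal copy, had 0.114, 0.426, 0.229 and 0.948, and Cdkn1c, a growth inhibitor among those neighbours, had 0.0487, 0.0371, 0.0764 and 0.679. H19 had 0.50, 0.734, 0.777 and 0.974, and Igf2r 0.254, 0.282, 0.321 and 0.555. TTF4 was the lowest line at Peg3 and Usp29 and the highest at the other 4.

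Genes of the cells of origin were described in the same way. The 37 proximal tubule genes with a value in all lines, of 38 listed, are mostly transporters and enzymes of the tubule and had medians of 0.350, 0.594, 0.416 and 0.843, and 0, 4, 1 and 21 of them were high. After centring, both TTF lines exceeded both PTC lines at 7 (18.9%, against 15.0% of all promoters) and lay below both at 3 (8.11%, against 12.7%), and limma called 0. H3K4me3 was present at 7, 15, 12 and 7 (18.9%, 40.5%, 32.4% and 18.9%). Among all genes named in both tables these shares were 46.4%, 57.9%, 56.5% and 47.2%. The 38 fibroblast genes, mostly of the extracellular matrix, had medians of 0.329, 0.393, 0.298 and 0.721, with 6 higher (15.8%) and 9 lower (23.7%) in both TTF lines, against 15.0% and 12.7% of all promoters, and 0 called by limma. H3K4me3 was present there at 11, 27, 27 and 19 (28.9%, 71.1%, 71.1% and 50%). For both lists the spread within TTF lines was larger than the difference of PTC lines from TTF1.

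Among proximal tubule genes the lowest were Lrp2, the gene of the endocytic receptor megalin (0.0135, 0.0186, 0.0554 and 0.0379), and Ass1, an enzyme of arginine synthesis (0.0314, 0.146, 0.0845 and 0.363). The highest were Cubn, the partner receptor of megalin (0.701, 0.751, 0.634 and 0.885), and Slc22a8, an organic anion transporter (0.481, 0.733, 0.906 and 0.825). Slc13a1, a sulphate transporter, had 0.694, 0.718, 0.134 and 0.713, the largest difference of the list (-0.370 after centring, SE 0.159, limma adjusted p = 0.937, and -0.524 without TTF4), and TTF1 alone stood apart. Slc34a1, the phosphate transporter whose promoter drives Cre in these mice, had 0.616, 0.594, 0.187 and 0.864 over 17 CpGs, with TTF1 lowest and TTF4 highest. At both transporters the 2 TTF lines lay further apart than the 2 PTC lines.

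Among fibroblast genes the lowest were Twist1, a factor of mesenchyme (0.0383, 0.00333, 0.0244 and 0.000871), and Fn1, the gene of fibronectin (0.00683, 0.0228, 0.0196 and 0.151). The highest were Mmp3, a matrix protease (0.668, 0.662, 0.643 and 1), and Fbn1, the gene of fibrillin (0.676, 0.769, 0.591 and 0.926). The largest difference between origins was that of Lox, given above (0.400 after centring, SE 0.145, limma adjusted p = 0.741, and 0.124 without TTF4), where TTF1 at 0.164 lay within 0.1 of both PTC lines.

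**Figure D5:**
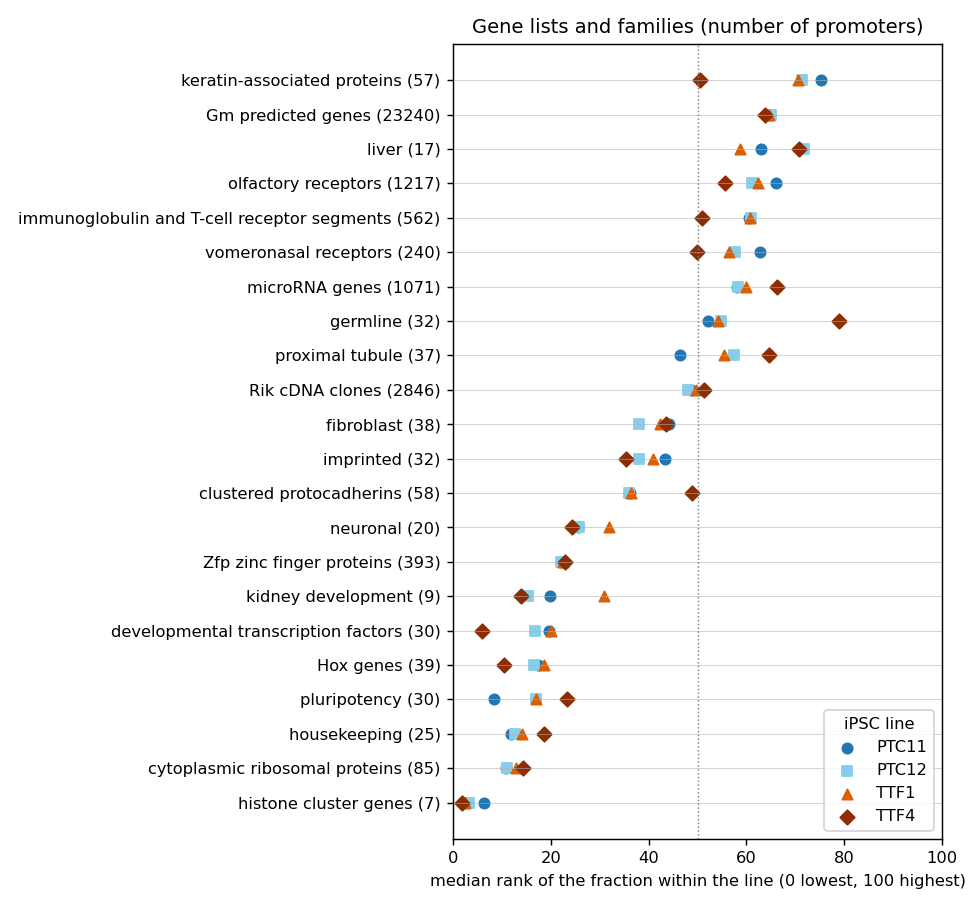
Median rank of the fraction within each line (horizontal axis, 0 lowest and 100 highest, dotted line at 50) for gene lists and families with the number of promoters in parentheses, 1 symbol per iPSC line. TTF4 lies above the other lines at germ cell genes (78.9) and clustered protocadherins (48.9) and below them at developmental transcription factors (5.99).

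The lists of other cell types gave the range in which these lie. Of 20 liver genes listed 17 had a value in all lines, none of which was low in all 4 lines. Their medians were 0.475, 0.687, 0.443 and 0.867, and Alb, whose CpG-poor window is printed above, had 0.748, 0.549, 0.676 and 0.894. Apoc3, an apolipoprotein gene, was as high on average, with 0.478, 0.871, 0.751 and 0.80. The lowest were Cps1, an enzyme of the urea cycle (0.325, 0.383, 0.139 and 0.424), and Fgg, a fibrinogen chain (0.393, 0.493, 0.257 and 0.840). Cyp3a11, a drug-metabolising enzyme in a family of similar copies, had the largest difference between origins, with 0.483, 0.788, 0.375 and 0.510. Of 20 neuronal genes 6 were low in all 4 lines, with medians of 0.143, 0.208, 0.196 and 0.367. Nefl, a neurofilament gene, had 0.00286, 0.0282, 0.0121 and 0.0104, and Gad2, an enzyme of GABA synthesis, had 0.0462, 0.0933, 0.0114 and 0.0494. At the upper end Rbfox3, a splicing factor of mature neurons, had 0.267, 0.911, 0.420 and 0.817, and Camk2a, a synaptic kinase, had 0.362, 0.610, 0.555 and 0.732. Sst, the somatostatin gene, had the largest difference, with 0.161, 0.423, 0.327 and 0.785. After centring, 1 liver gene was higher (5.88%) and 6 lower (35.3%) in both TTF lines, and 1 neuronal gene higher (5.00%) and 2 lower (10.0%), against 15.0% and 12.7% of all promoters, with 0 called by limma in either list.

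Housekeeping genes had medians of 0.0486, 0.0787, 0.0573 and 0.270. Of 25 listed, 7 were low in all 4 lines by the threshold and 17 had a rank of at most 25 in every line. Gapdh, the glycolytic enzyme, had 0.0211, 0.0528, 0.00853 and 0.0133, and Polr2a, the largest subunit of RNA polymerase II, had 0.0103, 0.0563, 0 and 0.0845. The highest were Ywhaz (0.508, 0.804, 0.486 and 0.897), an adaptor protein, and Gusb (0.294, 0.349, 0.302 and 0.907), a lysosomal enzyme, and both had TTF4 as their highest line. Ywhaz had 21 CpGs around its outermost start, and its other starts were not examined. After centring, 4 were higher (16%) and 3 lower (12%) in both TTF lines, against 15.0% and 12.7% of all promoters, and limma called 0. The list had a median of 89 CpGs, and among promoters with 80 or more CpGs the shares were 5.33% and 7.72%.

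The 9 genes of kidney development that the study followed had medians of 0.0961, 0.101, 0.184 and 0.198, and 4 were low in all 4 lines. After centring, 3 lay higher in both TTF lines (33.3%, against 15.0% of all promoters) and 0 lower (against 12.7%), and limma called 0. Jag1, a Notch ligand, had 0.0115, 0.00576, 0.0167 and 0.00710, and Six2, a factor of nephron progenitors, had 0.00877, 0.0149, 0.0184 and 0.00159. The highest were Adamts16, a matrix protease, with 0.282, 0.460, 0.781 and 0.782, and Agtr1a, an angiotensin receptor, with 0.134, 0.244, 0.525 and 0.434, and at both the TTF lines lay above the PTC lines also as deposited. Adamts16 differed by 0.323 after centring (SE 0.159, limma adjusted p = 1, and 0.458 without TTF4). The study chose these genes for the same lines, so the count is not independent evidence of a direction.

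Without TTF4, the counts by list can be set against TTF1 alone. TTF1 then exceeded both PTC lines after centring at 34.9% of all promoters and lay below both at 30.4%. Centring subtracts more from PTC12 (mean 0.475) than from PTC11 (0.366) and TTF1 (0.372). At promoters near 0 in every line, TTF1 then lies above PTC12 and near PTC11, and can hardly lie below both. For lists of low fraction the shares therefore partly follow from centring. It was above at 43.3% and below at 20.0% of the pluripotency genes, and at 31.3% and 25% of the germ cell genes. For developmental transcription factors the shares were 50.0% and 6.67%, for Hox genes 41.0% and 15.4%, and for imprinted genes 31.3% and 43.8%. For proximal tubule genes they were 37.8% and 29.7%, for fibroblast genes 31.6% and 36.8%, and for the 9 genes of kidney development 55.6% and 0%. Liver genes had 17.6% and 58.8%, neuronal genes 40.0% and 15.0%, and housekeeping genes 48.0% and 16%. The limma test without TTF4 called 0 members of these lists.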

How the data were processed

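CpG methylation was measured in 4 mouse iPSC lines by nanopore sequencing of sheared genomic DNA. The authors base called reads with Guppy, aligned them to mm10 with minimap2 (2.17-r941) and SAMtools (1.3.1), used Nanopolish to call methylation at CpGs, and deposited 1 fraction per gene, averaged over windows of 300 bp every 30 bp within 1000 bp of the TSS. For H3K4me3 and H3K36me3 the authors deposited RPKM for each gene, from reads aligned with Bowtie2 (2.1.0), peaks called with MACS2 (2.0.10) and counted with bedtools (2.17.0), less the input. A gene without a peak has no value. Coverage is not given, so no counting interval was computed, and exact permutation p-values measure the spread between lines only. The limma SE and p-values draw mostly on a spread between lines that is pooled over promoters with similar means. Tcl1, for example, has an SE of 0.142 beside an SD of 0.655 between its 2 TTF lines. Per the study's methods, the 2 samples of an origin stand for separate animals.

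Rows on chromosomes 1 to 19 with a value in all 4 lines were kept. Fractions were centred on the mean of each line, after the study, and compared with limma 3.58.1 (lmFit, and eBayes with a variance trend) in R 4.3.3, with Benjamini-Hochberg adjustment over 48866 promoters. On simulated data of these 48866 promoters with 200 changed by 0.5, the TTF minus PTC test recovered 100% with a tight spread, 25% with a spread pooled over promoters and 0% with the spread of each promoter. Summaries per line were compared by exact permutation over lines. CpGs within 1000 bp of each start were counted in GRCm38, and gene types were taken from GENCODE vM21. The start was the outermost annotated one of the gene on its strand, so a promoter further inside a gene is not covered. Low means at most 0.2 and high at least 0.8. The tables were joined by gene name, and names listed more than once were left out. Later descriptions by H3K4me3 use genes named in both tables.

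The members and gene lists were chosen with earlier results of these data known. Genes were named by rule: called promoters, the 2 lowest, 2 highest and most different members of each list, the 5 low promoters with most H3K4me3, and the 5 high promoters and 5 low promoters without H3K4me3 with most CpGs. No promoter was high with H3K4me3 in all 4 lines. Other list members, such as Slc34a1, were named after their values were seen. Alternatives covered centring, scale, thresholds, CpG minimum, gene type, join and leaving out each line; the join by Ensembl ID and the restriction to 40 to 79 CpGs were chosen after seeing the data. H3K27me3 was not used here.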

Additional observations from a re-analysis of the deposited data

How the results depend on the processing

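No paired analysis was possible because PTC and TTF lines have no line number in common. Of 48866 promoters limma called 9, and this became 40 with median centring, 2 with the X and Y chromosomes, 1 with identical rows counted once, and 0 without centring, with quantile normalisation, on a logit scale and without the variance trend. Leaving out 1 line gave 0 (PTC11) to 1029 (TTF1) calls, with 1 without PTC12 and 152 without TTF4. Promoters that separated by origin numbered 8052 with at least 20 CpGs and 5059 among protein coding genes, where fewer were tested, and 27184 to 35081 with 1 line left out, where fewer lines need to separate. Promoters high in all lines numbered 6 among protein coding genes, 1 at a threshold of 0.9, 722 at 0.7 and 1580 at a rank above 75, and 120 (without TTF4) to 595 (without PTC11) with 1 line left out. Promoters low in all lines numbered 2680 at a threshold of 0.1, 9515 at 0.3, and 6200 to 10527 (without TTF4) with 1 line left out. The difference between TTF and PTC lines ran from -0.0483 to 0.223 in mean fraction, from -14.3 to 4.18 percentage points in the share of low promoters and from -2.39 to 37.2 in the share of high promoters when 1 line was left out, and turned in each case only without TTF4. The difference in median fraction by H3K4me3 ran from 0.421 to 0.496 with 1 line left out and from 0.365 to 0.492 under the other settings, and its excess in TTF lines from -0.0610 (without TTF4) to 0.164. The cause of these changes was not tested, except where the number of promoters or lines sets them. Coverage is unknown, which limits CpG-poor promoters most.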

Other observations

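Gene families outside the lists were described in the same way. The 1217 olfactory receptor promoters with a value in all 4 lines, of 1402, with a median of 7 CpGs, had median fractions of 0.496, 0.620, 0.474 and 0.80 in PTC11, PTC12, TTF1 and TTF4, and TTF4 was the highest line at 63.9% of them, against 76.0% of all promoters. The 57 promoters of keratin-associated proteins, which are hair proteins, had median ranks of 75.2, 71.4, 70.6 and 50.6, so that they stood lower within TTF4 than within the other lines. The 58 clustered protocadherins, cell surface proteins of neurons, stood higher in TTF4, with fractions of 0.251, 0.363, 0.237 and 0.761 and median ranks of 36.2, 36, 36.3 and 48.9. TTF4 was the highest line at 93.1% of them, and both TTF lines exceeded both PTC lines after centring at 16 (27.6%, against 15.0% of all promoters) and lay below both at 3 (5.17%, against 12.7%). The 85 genes of cytoplasmic ribosomal proteins had 0.0431, 0.0661, 0.0506 and 0.204, with 41 (48.2%) low in all 4 lines. The 393 Zfp zinc finger genes had 0.113, 0.166, 0.112 and 0.340, with 93 low in all 4, and the 1071 microRNA genes had 0.439, 0.600, 0.454 and 0.849. Olfactory receptor, keratin-associated protein and protocadherin genes have similar copies, so their values are uncertain.

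H3K36me3, which marks the bodies of transcribed genes, went with small differences at promoters, between groups whose CpG counts also differed. Among genes without H3K4me3 in any line, the 2176 with H3K36me3 in all 4 lines had median fractions of 0.461, 0.631, 0.470 and 0.828, and the 4117 with it in none had 0.499, 0.654, 0.494 and 0.825. Among genes with H3K4me3 in all 4 lines, the 8664 with H3K36me3 in all 4 had 0.0691, 0.0976, 0.0696 and 0.204, and the 63 with it in none had 0.0804, 0.142, 0.0871 and 0.317. Without H3K4me3 the median CpG counts were 21 (H3K36me3 in all 4) and 12 (in none), and with it 100 and 47. CpG content was not matched here.

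Chromosome 11 had a larger share of promoters low in all 4 lines (21.2%) than the other autosomes, and chromosome 6 had 10.0%. Chromosome 11 also had the highest median CpG count (37) and protein coding share (55.0%), beside 23 and 36.2% on chromosome 6. The X chromosome had median fractions of 0.396, 0.605, 0.389 and 0.80 over 1790 promoters. Of 1569 rows on the Y chromosome, 45, 10, 148 and 152 had a value in PTC11, PTC12, TTF1 and TTF4, and 1 had a value in all 4. Y values were thus more frequent in both TTF lines. The sex of the donor mice is not stated, and its part in the differences between origins was not tested.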
